A study of Saccharomyces cerevisiae with 2 samples.

Results

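The genes of the 26S proteasome were described in budding yeast (Saccharomyces cerevisiae) whose histone H3 carries arginine in place of lysines 4, 36 and 79. A total of 34 genes was chosen by name, and a gene counted as measured where a probe set matched it and no other gene. All 34 were measured, by 39 of the 6504 single-gene probe sets, out of 5656 genes so covered. The rule itself uses gene names and no measured value. The name fits 32 of them, which encode subunits. UMP1 encodes an assembly factor, and RPN4 encodes a transcription factor, so both are described apart from the subunits.

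The series held 1 group, the strain labelled H3 K4,36,79R, with 2 arrays from replicate cultures taken 12 h after a change of medium. Galactose in selective medium kept a wild-type H3 gene on, and glucose turned it off, so that the mutant H3 was left as the only source. Both cultures carry the same alleles and had the same treatment, and cells were collected at an optical density between 0.5 and 0.7. Wild-type cells and other times were not analysed here, so no value below is a difference between mutant and wild type, or between times. The labels do not state whether the cultures came from separate clones.

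The proteasome is the enzyme complex that degrades proteins tagged with ubiquitin. Its core particle is a stack of outer alpha rings and inner beta rings, and the cutting sites lie inside on the beta rings. A regulatory particle caps the core. Its base holds a ring of ATPases that unfold the substrate, and its lid removes the ubiquitin chain. In yeast the subunit genes are largely controlled by Rpn4, an activator that the proteasome itself degrades, so that a shortage of proteasomes raises the transcription of its own genes.

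The arrays carried 9335 probe sets, whose median signal was 28.4 (replicate 1) and 27.5 (replicate 2). The signal of a gene was the mean of its probe sets on the log2 scale, written back on the linear scale, and the median over all genes was 42.0 and 41.4. The 3' to 5' signal ratios of the control genes ACT1, SPT15 and SRB4 ranged from 1.29 to 2.44 on replicate 1 and from 1.43 to 2.81 on replicate 2. A signal also depends on how well its probe set hybridises, so each gene is set beside the array as a whole or beside itself on the other array, and not ranked against other members.

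The proteasome genes gave strong signal in both mutant cultures. Their median signal was 201 on replicate 1 and 177 on replicate 2, or 189 ± 17.3 (SD, n = 2 arrays). The genes at the middle differ between the arrays, so these medians do not show a fall of the list. Gene by gene, the median log2 ratio of replicate 2 to replicate 1 was -0.025. Signals ran from 42.0 to 550 on replicate 1 and from 41.9 to 518 on replicate 2. On both arrays 31 of the 34 genes lay above the 75th percentile of all genes (95.3 and 94.0), a level that 24.0% of all genes passed on both arrays. The exceptions were the ATPase genes RPT3 and RPT5 and the assembly factor gene UMP1. Above the median of all genes lay 33 of 34, against 48.2% of all genes, and RPT5 sat at that median. As a complex of similar kind, the CCT chaperonin, which folds actin and tubulin, had a median of 204 and 205 over its 8 genes, and 7 of these lay above the 75th percentile.

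**Figure D1:**
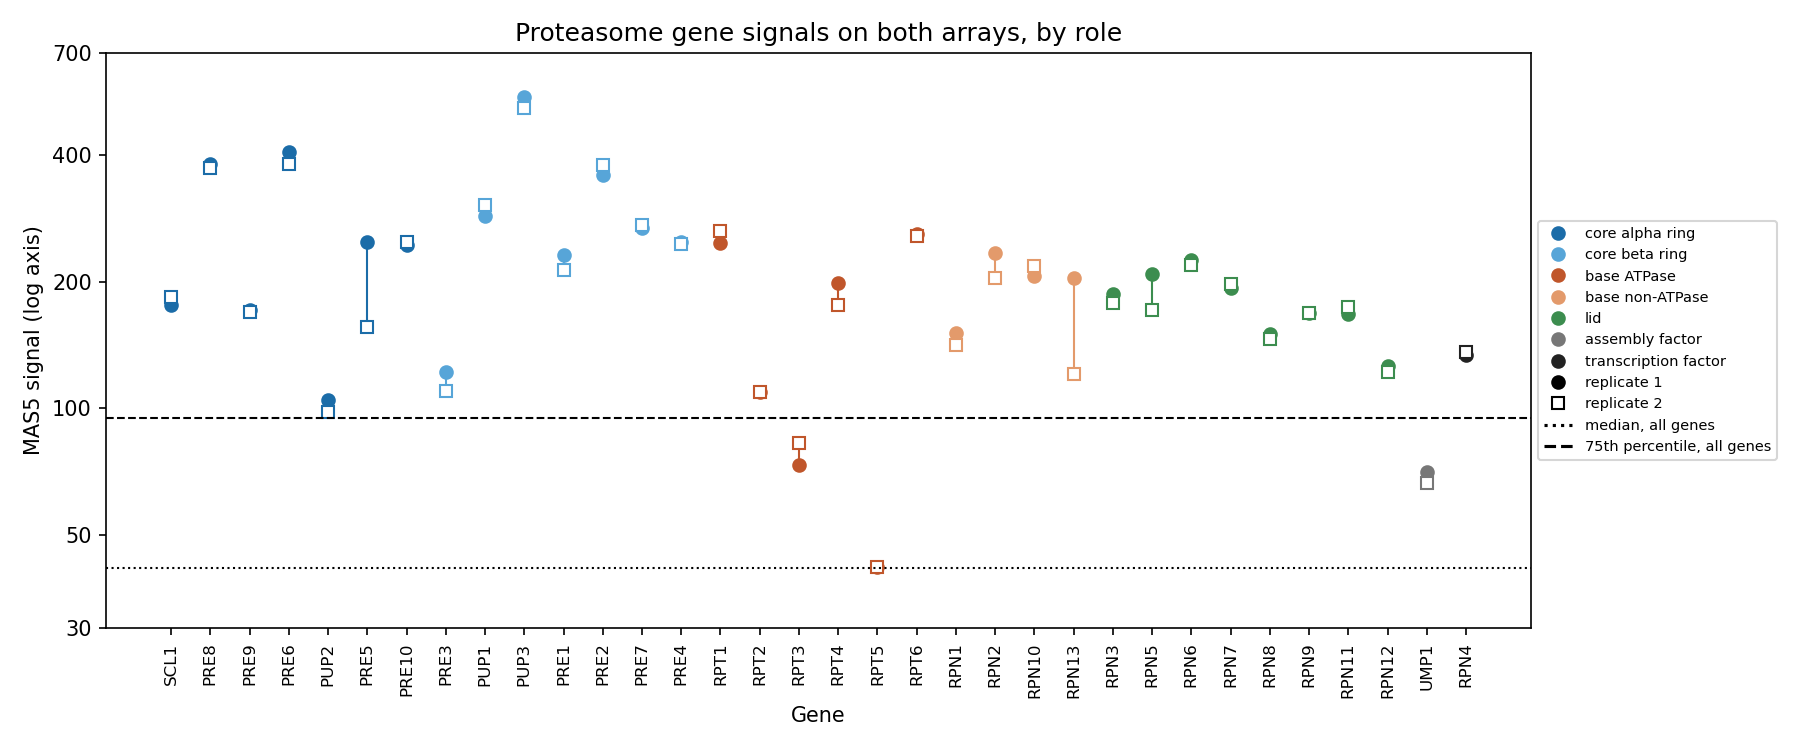
MAS5 signal (log axis) of the 34 proteasome genes on both arrays, ordered and coloured by role, with filled circles for replicate 1 and open squares for replicate 2. The dotted and dashed lines are the median and the 75th percentile of all genes, averaged over the arrays. Most pairs of symbols nearly touch, PRE5 and RPN13 are spread apart, and 3 genes (RPT3, RPT5 and UMP1) lie under the dashed line.

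The core particle had a median signal of 249 and 247 over its 14 genes, or 248 ± 1.44 (SD, n = 2). All 14 lay above the 75th percentile of all genes on both arrays. Above the 90th percentile on both arrays (248 and 243) lay 7 of the 14, against 9.67% of all genes. The base had 1 of 10 genes above that level and the lid 0 of 8. These counts describe places on the array and not RNA amounts, and no test between the subcomplexes was made, since the design has a single group.

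The alpha ring, which holds the gate of the core, had 7 genes with a median of 245 and 184 on replicates 1 and 2. These medians are the values of different genes, PRE10 and SCL1, and do not show a fall of the ring. Taken gene by gene, the median log2 ratio of replicate 2 to replicate 1 was -0.028. The gene of its first subunit, SCL1 (YGL011C), read 176 and 184. PRE8 (YML092C), which encodes the second, read 381 and 374. PRE9 (YGR135W), the gene of the only core subunit that yeast can live without, read 171 and 169.6. These 3 genes were almost level between the cultures. PRE6 (YOL038W), the gene of the fourth subunit, read 406 and 382. PUP2 (YGR253C), that of the fifth, read 105 and 97.7. PRE10 (YOR362C), that of the seventh, read 245 and 248. PRE5 (YMR314W), which encodes the sixth subunit, stood apart from the rest of the ring at 249 and 156.

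The beta ring had a median of 268 and 272 over 7 genes. Its catalytic subunits are encoded by PRE3, PUP1 and PRE2, which carry the caspase-like, trypsin-like and chymotrypsin-like activities. PUP1 (YOR157C) read 286 and 304, and PRE2 (YPR103W) read 359.6 and 379.8, so both were slightly higher on replicate 2. PRE3 (YJL001W) read 122 and 110.1 as the mean of 3 probe sets that disagreed. Its plain probe set gave 225 and 245, the one marked as able to match related sequences 106 and 91.8, and the remaining one 76.5 and 59.4. Only the plain one was higher on replicate 2.

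The other beta genes encode subunits without a cutting site. PUP3 (YER094C) read 550.4 and 518. PRE1 (YER012W) read 232 and 213, and PRE7 (YBL041W) 268 and 272. PRE4 (YFR050C), whose product supports the caspase-like site from the opposite ring, read 249 and 245. As means of their probe sets, all 7 beta genes differed by less than 1.2-fold between the cultures.

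The base had a median of 201 and 158 on the 2 arrays over its 10 genes, or 179 ± 30.8 (SD, n = 2). These medians lie between different genes, RPT4 and RPN13 on replicate 1, and RPN1 and RPT4 on replicate 2. They do not show a fall of the base, whose median log2 ratio, gene by gene, was -0.0083. Without RPN13, described below, the median was 199 and 176 over 9 genes, the values of RPT4. The 6 ATPase genes of the base had a median of 147 and 138. RPT1 (YKL145W) read 247 and 265. RPT2 (YDL007W), whose product opens the core gate, read 109 on both arrays. RPT3 (YDR394W) read 73.3 and 82.5, and it had the highest ratio of replicate 2 to replicate 1 among the members. RPT4 (YOR259C) read 199 and 176, and RPT6 (YGL048C), long known as SUG1, read 259.5 and 257.

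RPT5 (YOR117W) rests on 4 probe sets that disagreed more than those of any other member. They read 6.78, 36.8, 92.6 and 134 on replicate 1 and 7.71, 33.3, 91.0 and 132 on replicate 2. Their mean gave 42.0 and 41.9, a value that belongs to none of the 4. The place of RPT5 at the array median is therefore a property of this averaging, and with its brightest probe set the mean of both arrays was 133. The probe sets were alike in one respect, since each changed by less than 1.2-fold between the cultures.

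The remaining base genes encode scaffolds and ubiquitin receptors. RPN1 (YHR027C), the gene of the scaffold that docks shuttle proteins and a deubiquitinase, read 151 and 142. RPN2 (YIL075C), that of the scaffold to which Rpn13 binds, read 234 and 204. RPN10 (YHR200W), the gene of a ubiquitin receptor, read 207 and 218. RPN13 (YLR421C), that of another ubiquitin receptor, read 204 and 121, the lowest ratio of all members.

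The 8 lid genes among the members were narrow in range. Their median was 177 and 172, or 175 ± 3.47 (SD, n = 2), and each lay between 122 and 225 on both arrays. This range is that of the 8 chosen genes and not of the whole lid. SEM1, the gene of a small lid subunit that is not among the members, read 74.0 and 80.2. RPN11 (YFR004W), the gene of the metalloprotease that cuts ubiquitin chains off substrates, read 168 and 174. RPN8 (YOR261C), that of its inactive partner, read 150.2 and 146. The pair thus kept within 1.2-fold. RPN3 (YER021W) read 187 and 178, RPN6 (YDL097C), which also contacts the core, 225 and 219, and RPN7 (YPR108W) 193 and 197. RPN9 (YDR427W) read 168 on both arrays, and RPN12 (YFR052W) 126 and 122. RPN5 (YDL147W), a lid scaffold gene, read 208 and 171.

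The genes of the assembly factor and of the activator were also level. UMP1 (YBR173C), whose product helps half-proteasomes join and is then degraded as the first substrate, read 70.6 and 66.3. RPN4 (YDL020C), the activator gene, read 134 and 136, or 135 ± 1.31 (SD, n = 2), with a log2 ratio of 0.020. RPN4 RNA was thus measured, but Rpn4 protein, which is short-lived, was not.

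The second comparison was between the cultures, as the log2 ratio of replicate 2 to replicate 1. With an array against an array there is no replicate check and no p-value. Ratios were read over the 4242 genes whose mean signal reached the 25th percentile (19.2), and all 34 members passed this filter. The median log2 ratio of the members was -0.025, against -0.023 for all genes past the filter. Of the members, 17 lay above and 17 below that median, an even split like that of all genes, which have it by construction. The core had a median log2 ratio of -0.025, the base -0.0083 and the lid -0.040. Every one of these differed from that of all genes by less than 0.02 on the log2 scale, where the SD between members was 0.19 in the core, 0.26 in the base and 0.10 in the lid.

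Between the cultures, 31 of 34 members differed by less than 1.2-fold. Past that size, 3 members were lower in the second culture and 0 higher. The 3 were RPN13, PRE5 and RPN5. Among all genes past the filter 6.91% were lower and 3.47% higher by this size, and among the 2604 of them within the members' range of mean signal 5.22% and 2.65%. The members' count of 3 in 34 is near these shares. Within 1.1-fold lay 27 of 34 members, against 66.2% of all genes past the filter and 69.9% of those in the same signal range. The CCT chaperonin had 7 of 8 genes within 1.1-fold, and CCT7 was lower past 1.2-fold at 98.9 and 81.8.

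**Figure D2:**
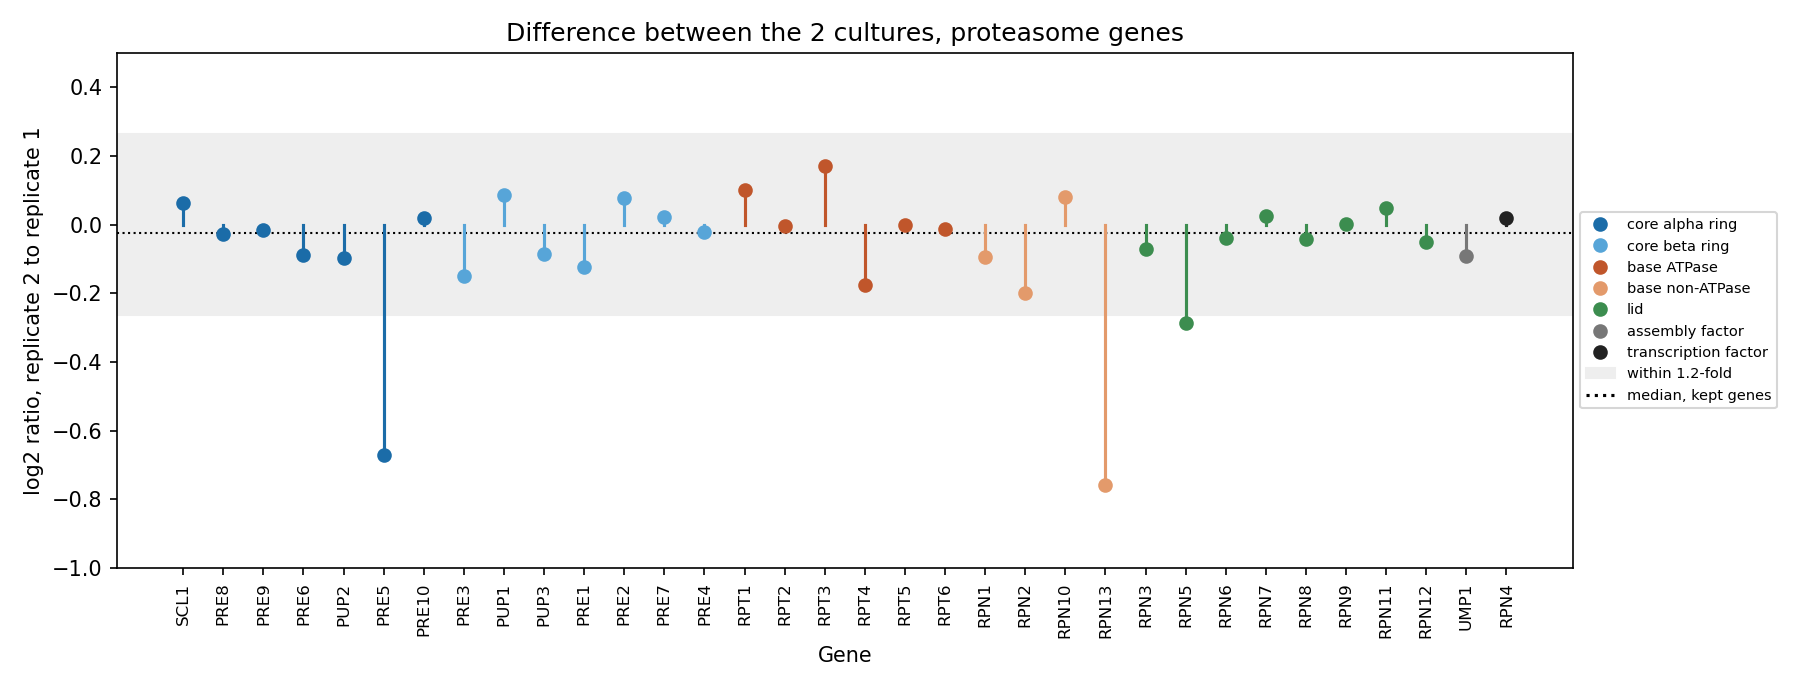
Log2 ratio of replicate 2 to replicate 1 for each of the 34 proteasome genes, by role, with the range within 1.2-fold shaded and the median of all genes past the filter dotted. PRE5 at -0.67, RPN13 at -0.76 and RPN5 at -0.29 fall under the shaded range, and no gene rises above it.

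RPN13 and PRE5 carried most of the spread. RPN13 had a log2 ratio of -0.76, which is 1.69-fold, and PRE5 one of -0.67, which is 1.59-fold. These 2 members were lower past 1.5-fold, as were 1.08% of all genes past the filter in the same signal range. RPN5, at -0.29 or 1.22-fold, lay just past the 1.2-fold limit, and RPN2, at -0.20 or 1.15-fold, just inside it. After median centring or quantile normalisation RPN5 came inside the limit, both at -0.24, which left 2 members past it. The SD of the log2 ratio over the 34 members was 0.19. Without RPN13 and PRE5 it was 0.096, and the remaining 32 genes ran from -0.29 to 0.17. With no gene left out, it was 0.18 over the genes in the same signal range and 0.12 over the 8 CCT genes. The value to set beside these is the 0.19 over all 34 members, and not the 0.096.

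PRE5 and RPN13 were singled out as the 2 members that differed most, so other genes of their subcomplexes differed less by construction. Beside PRE5, the other 6 alpha genes all lay within 1.1-fold, as did 66.2% of all genes past the filter. The 6 ran from PUP2 at a log2 ratio of -0.097 to SCL1 at 0.064. RPN2, whose product holds Rpn13, had a log2 ratio of -0.20, and RPN10, another ubiquitin receptor gene of the base, one of 0.080. Each of the 2 low genes has a single probe set, so a second measurement within an array is lacking.

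The numbers of their probe sets lie beside others that were low on replicate 2. PRE5 has number 9322, and the probe sets numbered just below and just above it had log2 ratios of -0.31 and -0.37. RPN13 has number 9912, with -0.40 just below and 0.13 just above. In both cases the probe set 12 numbers higher was past 2-fold lower, at -1.54 beside PRE5 and -1.74 beside RPN13. The median of the neighbours within 15 numbers was -0.024 over 22 probe sets for PRE5 and -0.047 over 24 for RPN13. Of these neighbours, 4 were lower past 1.2-fold for PRE5 and 4 for RPN13. Low neighbours were not particular to these 2 members. RPN2 had 5 among 23, with -0.29 just below and -0.32 just above, and RPN1 had 4 among 23. Most other members had fewer than 4.

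Low neighbours were also counted over the whole array. In all, 22 probe sets past the signal filter were at least 2-fold lower on replicate 2. Leaving out the proteasome genes and the 22 themselves, 7 of 16 probe sets numbered just below one of these and 8 of 18 just above were lower past 1.2-fold, against 9.07% of all probe sets past the filter. At 12 numbers below, where PRE5 and RPN13 lie, the count was 2 of 14, at 13 below 7 of 17 and at 14 below 0 of 15. At 12, 13 and 14 numbers above it was 3 of 10, 8 of 17 and 6 of 12. Farther away, it was 6 of 13, 5 of 9 and 6 of 17 at 69, 70 and 71 below, and 3 of 14, 6 of 14 and 7 of 18 at 69, 70 and 71 above. All distances up to 80 numbers either way were counted, and those given were picked with the counts in view. At most other distances few or none were lower, but it was 4 of 11 both at 56 below and at 80 above. No pattern by distance was tested. RPN6 and RPN9 also lie within 15 numbers of such a probe set, and their log2 ratios were -0.039 and 0.0010. The numbers come from the probe set names, and no location on the array was used. Whether probe set number has a part in the low values of PRE5 and RPN13 was not tested.

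**Figure D3:**
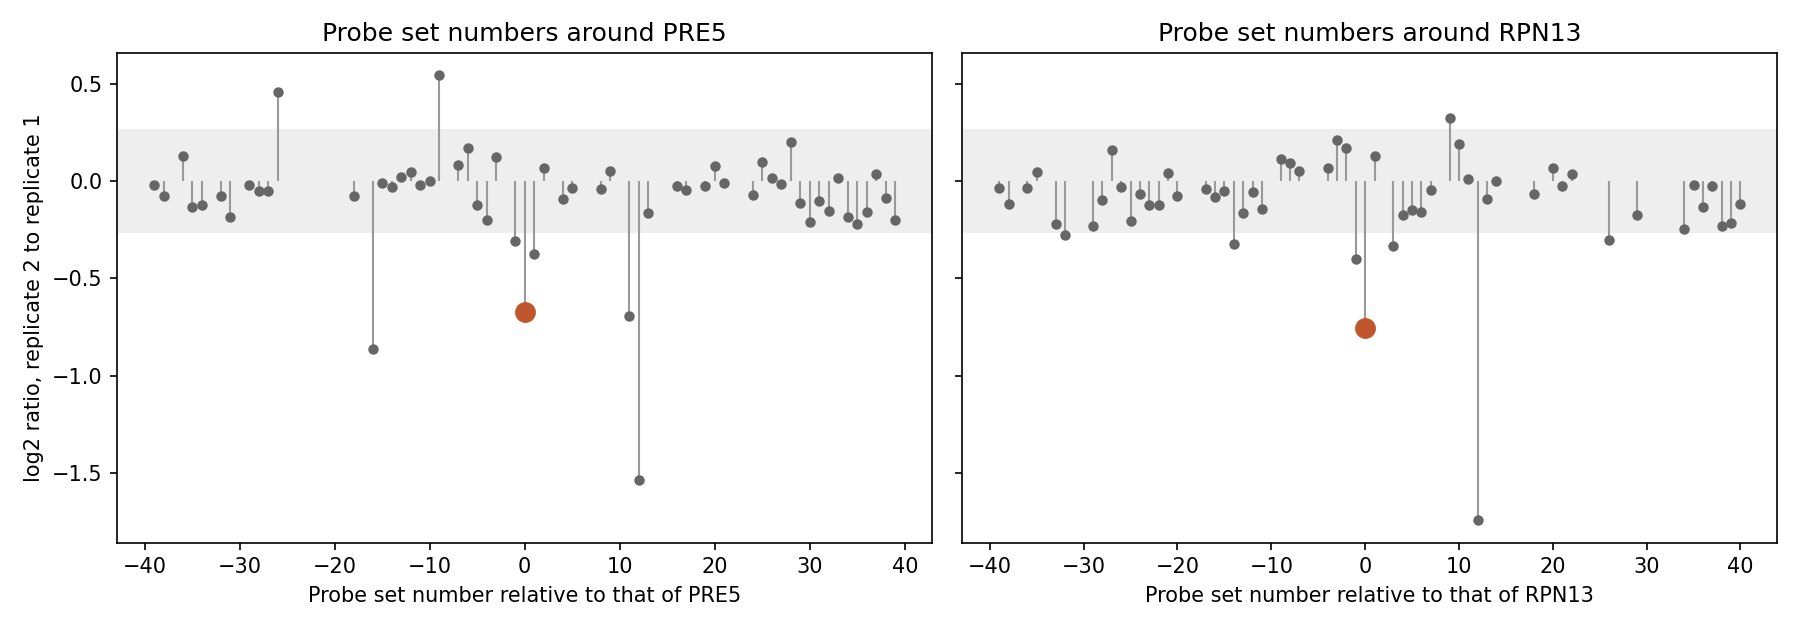
Log2 ratio of replicate 2 to replicate 1 for probe sets past the signal filter, by their number relative to that of PRE5 (left) and RPN13 (right), with the member as a large orange point and the range within 1.2-fold shaded. Most neighbours lie in the shaded range, and a probe set 12 numbers higher lies at -1.54 in the left panel and -1.74 in the right.

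Genes that act with the proteasome were read from lists chosen for their function. Of 7 assembly chaperone genes, 6 passed the signal filter, and 2 of these were lower past 1.2-fold and 0 higher. Among all genes past the filter 6.91% were lower and 3.47% higher. NAS6, a base chaperone gene, read 162 on both arrays, and NAS2, another, 11.4 and 11.0, under the filter. ADD66, a core chaperone gene, had the lowest ratio at 62.8 and 50.8, and POC4, also for the core, the highest at 52.4 and 53.1. HSM3, the other gene past the limit, read 29.2 and 23.8 and is named for that.

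Of 7 genes for proteins bound to the proteasome, 6 passed the filter, with 2 lower past 1.2-fold and 0 higher, against the same 6.91% and 3.47%. The deubiquitinase gene UBP6 read 185 and 179. HUL5, the gene of a ligase that extends ubiquitin chains on stalled substrates, had the lowest ratio at 70.9 and 49.5, a log2 ratio of -0.52. CIC1 followed at 80.2 and 64.4. STS1, which acts in proteasome localisation, had the highest ratio at 77.0 and 87.5. ECM29, the gene of a protein that tethers core to cap, had 8 probe sets from 0.639 to 54.5 on replicate 1, so its mean of 9.72 and 10.5 says little. SEM1, the gene of the small lid subunit that is not among the 34 members, read 74.0 and 80.2.

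Ubiquitin itself was bright. The polyubiquitin gene UBI4 read 549 and 472, and RPS31, which encodes ubiquitin fused to a ribosomal protein, 1496 and 1277. The other fusion genes, RPL40A and RPL40B, share 3 probe sets that cannot be given to either, and these read from 559.6 to 903 on replicate 1 and from 477 to 832 on replicate 2. UBA1, the gene of the ubiquitin-activating enzyme, read 171 and 187. None of the 3 genes with their own probe sets passed 1.2-fold, and 3802 of the 4242 genes past the filter did not either.

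Among 13 genes of ubiquitin conjugation, 12 passed the filter, 4 of them higher past 1.2-fold and 0 lower, against 3.47% and 6.91% of all genes past it. The conjugating enzyme gene UBC4 read 678 and 682. HRD1, the ligase gene of degradation at the endoplasmic reticulum, had the highest log2 ratio, 0.50, at 18.7 and 26.5, close to the filter. UFD2, at 59.9 and 81.6, UBR1, at 107 and 130.3, and CDC34, at 63.3 and 76.3, were the others past the limit. RSP5, an essential ligase gene, had the lowest ratio at 147 and 127. UBR2, whose product marks Rpn4 for degradation, read 17.4 and 16.8 and lay under the filter.

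The 7 genes that deliver tagged proteins all lay within 1.1-fold, as did 66.2% of all genes past the filter. The unfoldase gene CDC48 read 507 and 532, and its cofactor gene UFD1 39.6 and 41.8. The shuttle gene DSK2 had the highest ratio at 374 and 399.9, and DDI1 the lowest at 75.6 and 75.7. All 7 log2 ratios were above 0, against 42.4% of all genes past the filter. They ran from 0.0019 to 0.096, a span smaller than the SD of 0.20 over all genes past the filter.

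Regulators of RPN4 transcription were dimmer and spread in both directions. PDR1, the gene of a drug resistance activator, read 74.0 and 102, a log2 ratio of 0.46 and past 1.2-fold. Its relative PDR3 read 20.4 and 15.5, under the filter. YAP1, the oxidative stress activator gene, read 49.7 and 43.0, and the heat shock factor gene HSF1 50.9 and 56.3. RPN4 itself differed by 1.01-fold between the same arrays.

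**Figure D4:**
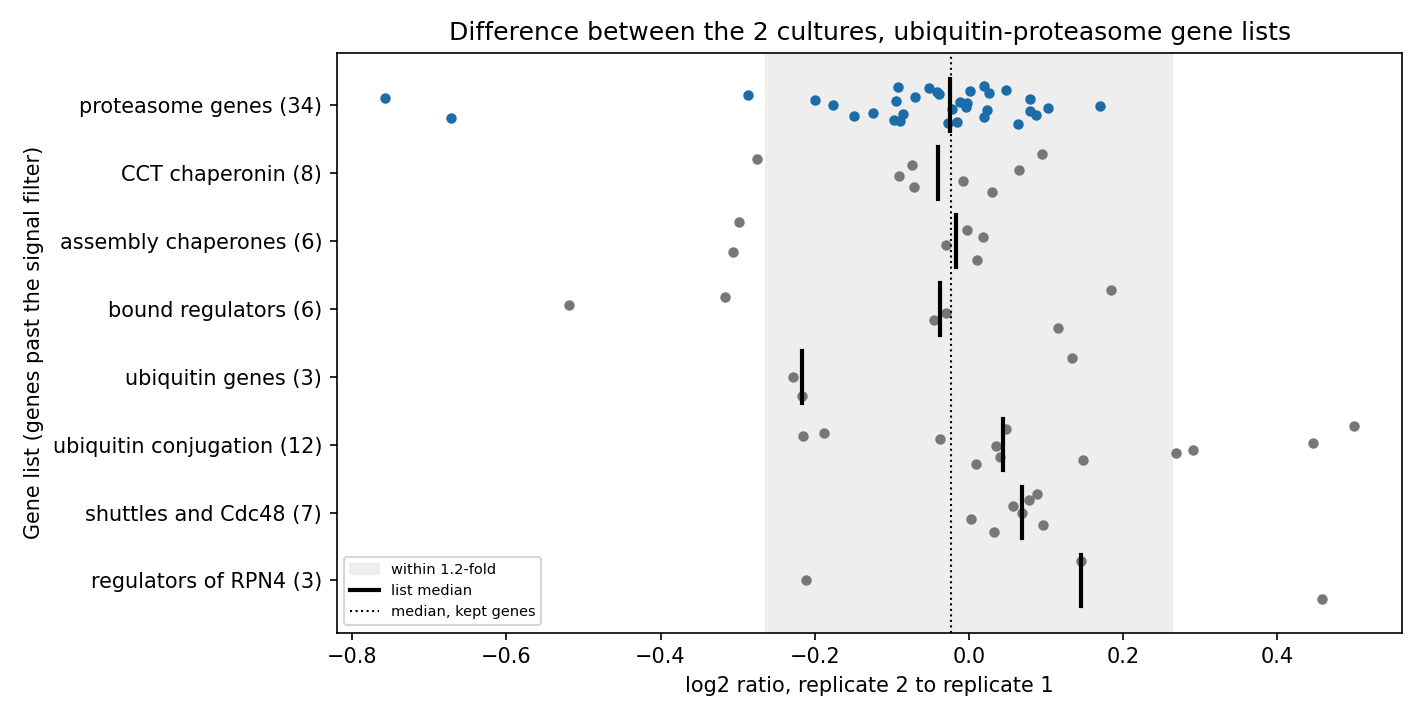
Log2 ratio of replicate 2 to replicate 1 for genes past the signal filter in the proteasome list and 7 related lists, 1 point a gene, with list medians as black bars, the range within 1.2-fold shaded and the median of all genes past the filter dotted. Most proteasome points gather around the dotted line, and PRE5, RPN13 and RPN5 lie to the left of the shaded range. The 7 shuttle and Cdc48 genes lie between 0.0019 and 0.096.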

How the data were processed

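Total RNA from 2 cultures was made into biotin-labelled cRNA and hybridised to an array each. The deposited values are intensity values, a signal per probe set on a linear scale, computed by the authors in MAS5, per the submitters' processing notes. For its settings, the sources used here give no value. Detection calls were not analysed here. Gene names came from the platform annotation and were brought up to date with RefSeq's R64 table (all 6504 single-gene probe sets matched). The 328 probe sets with several genes were not named. A gene's value was the mean log2 signal of its probe sets without values of 0 (29 probe sets on replicate 1, 26 on replicate 2). Errors are SD over 2 arrays, whose number limits the precision, and the series' design text calls the cultures replicates without saying how separate they were. No test was possible. Members, lists and the rule for named genes (all members, the extremes of signal and ratio in each other list, every gene of lists of 5 or fewer) were chosen with earlier results of these data known. HSM3, CIC1, SEM1, UFD2, UBR1 and CDC34 were picked with their values in view. No sequence is shown, since none was given with the data. The signal filter, the 1.2-fold limit and the list median were tested on simulated data with 1 value a gene on each array. The changes set there for single genes were 2-fold, far past the limit, and the noise was smaller than the spread of these data. False calls were not counted, so the simulation does not show how the 1.2-fold limit works on smaller differences. The averaging of several probe sets, the counts of neighbours and the normalisations were not tested in this way. Software was matplotlib 3.10.9, numpy 2.4.6, scipy 1.17.1 and pandas 2.3.3 under Python 3.11.15. Alternatives were the brightest or plain probe sets, median centring, quantile normalisation, a pseudocount of 16, other filters, list means, a fold of 1.5 and leaving out genes, a replicate or probe sets numbered near low ones. Leaving out PRE5 and RPN13 was chosen after seeing the data.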

Additional observations from a re-analysis of the deposited data

How the results depend on the processing

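No paired analysis was possible because the 2 arrays form a single group. A value was taken as moved where it shifted by more than the SD over arrays for signals, by more than the SD between genes for log2 ratios, or by over 1.5 times for counts and SDs. Of 103 list values recomputed, 97 did not move. The limits for the log2 ratios, from 0.10 for the lid to 0.26 for the base, were wider than the list medians they applied to. Those values could hardly move, and their count is no measure of stability. The limit of 30.8 for the base signal was also wide, against an SD of 16.2 without RPN13. Leaving out probe sets numbered within 15 of one at least 2-fold lower removed PRE5, RPN13, RPN6 and RPN9, and left 1 member past 1.2-fold in place of 3 and an SD of the log2 ratios of 0.099 in place of 0.19. Leaving out PRE5 and RPN13 alone, chosen after seeing the data, left 1 member and an SD of 0.096. Median centring and quantile normalisation each left 2 members past 1.2-fold, without RPN5. With the mean of the list in place of the median, the core signal was 241 and the base signal 147. Single-replicate values of the median signal ranged from 177 to 201 for the proteasome, 247 to 249 for the core, 158 to 201 for the base and 172 to 177 for the lid. The median log2 ratio of the members, relative to all genes past the filter, ran from -0.035 to 0.0048 over 11 alternatives. Among single members, 392 of 400 values did not move. This count is no measure of stability either. Every member except PRE3 and RPT5 has a single probe set, so choosing among probe sets could not change its value. The limit for single log2 ratios, 0.19, was also wider than most of the ratios. PRE3 had a log2 ratio of -0.15 as the mean of its probe sets and 0.12 with its brightest or plain one. RPT5 had a signal of 133 with its brightest probe set, 31.0 with plain ones and 50.1 with a pseudocount of 16.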
